A study of Homo sapiens and Mus musculus with 10 samples.

Results

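The alpha-arrestins ARRDC1, ARRDC2, ARRDC3, ARRDC4 and TXNIP were followed in HEK293T, a human embryonic kidney line. They were taken as the rows of the 2 HEK293T count tables whose symbol equals one of these names. Of the 5 genes, 4 were found among the 16120 rows of the table of the stress set and 3 among the 11976 rows of the table of the genotype set. ARRDC1 (NM_152285.2), ARRDC3 (NM_020801.2) and ARRDC4 (NM_183376.2) were counted in both tables and are among the 10368 transcripts tested. ARRDC2 (NM_001025604.1) was counted in the stress set alone, and TXNIP was not analysed here.

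RNA was sequenced after depletion of ribosomal RNA. In the stress set, wild-type (WT) cells gave 1 library for each of mock treatment, glucose deprivation for 24 h (GD) and 300 nM thapsigargin for 6 h (TG). Thapsigargin blocks SERCA, which fills the endoplasmic reticulum (ER) with calcium, and so brings on ER stress. The genotype set held 4 libraries, mock and GD from WT cells and the same treatments in a UFD1s-deficient line. UFD1 works with the ATPase VCP in protein degradation. How the UFD1s-deficient line was made, or whether it is 1 clone, is not given in the sources used here. All 7 libraries came from the same parent line, and no condition was repeated within a set. Nothing in the labels names separate cultures, so whether the libraries are independent cultures is not known. The spread behind each p-value comes from disagreement between mock and GD pairs that differ in set or genotype. The fit also draws the spread of each transcript toward that of all transcripts. The p-value of an arrestin thus rests in part on the pairs of other transcripts. No repeat within a set enters this spread.

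Alpha-arrestins are adaptor proteins of the arrestin fold. They bind membrane proteins and bring ubiquitin ligases of the NEDD4 family to them through short proline-rich motifs, which sends the cargo to endosomes. TXNIP and ARRDC4 are textbook targets of MondoA, a transcription factor that pairs with Mlx and acts when glucose 6-phosphate is plentiful. Both proteins are known to lower glucose uptake. MondoA and its relative ChREBP bind the carbohydrate response element, a pair of E-box-like half-sites with a short spacer.

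The promoters of ARRDC4 and TXNIP are shown because this pair is the glucose-responsive branch of the family. The sequences are from RefSeq on GRCh38.p14, all 5 genes matched, and they are printed 5′ to 3′. Matches to the E-box or the carbohydrate response element are in capitals. Matches to the CCAAT box, described below, are left in lower case. The ARRDC4 stretch is the 250 bases before the start, chr15:97960453-97960702 on the plus strand, with an E-box in capitals. The TXNIP stretch is chr1:145996640-145996679 on the minus strand, with a carbohydrate response element in capitals.
ARRDC4: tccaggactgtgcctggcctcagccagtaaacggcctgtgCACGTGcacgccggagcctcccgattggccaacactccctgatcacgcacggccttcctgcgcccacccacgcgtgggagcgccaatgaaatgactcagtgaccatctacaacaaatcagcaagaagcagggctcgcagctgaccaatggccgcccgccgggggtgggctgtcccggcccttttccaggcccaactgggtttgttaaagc
TXNIP: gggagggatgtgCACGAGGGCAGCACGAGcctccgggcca

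Motifs were searched on both strands in the 250 bases before each of 35116 RefSeq starts. The E-box CACGTG lay in 6.34% of these windows and the carbohydrate response element, a pair of CACGNG half-sites with a spacer of 5 bases, in 0.0456%. The ARRDC4 window held 1 E-box, 210 to 205 bases before the start, and no match to the longer element as spelled. One of the 2 TXNIP windows held that element, 88 to 72 bases before the start. The windows of ARRDC1, ARRDC2 and ARRDC3 held neither motif. The CCAAT box (CCAAT) lay in 32.0% of all windows, 3 times in that of ARRDC4, 2 times in 1 of the 2 TXNIP windows, and 1 time in the ARRDC1 window and in 1 of the 2 windows each of ARRDC2 and ARRDC3. The ER stress element, CCAAT and CCACG with a spacer of 9 bases, in 0.074% of windows, and the amino acid response element TGATGNAA, in 3.14%, were in none of the 8 windows of the 5 genes. A match is a run of letters and not a shown binding site.

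The counted reads per library came to between 11461365 and 19024327. DDIT3, which encodes the stress transcription factor CHOP, had 4, 16 and 10 reads in the 3 mock libraries, 217, 98 and 136 in their GD partners and 211 in TG. HSPA5, the ER chaperone BiP, had 13540 reads in stress-set mock, 89962 in GD and 281566 in TG. Its rise in GD was smaller in the genotype set, from 8435 to 24466 reads in WT cells and from 9693 to 43168 in deficient cells. Of 7 markers of the line, 6 were counted in the stress set and 4 in the genotype set. VIM, CDH2, NEFL and INA had reads in all 7 libraries. NEFM and GATA3 were counted in the stress set alone, with at most 8 and at most 4 reads. PAX2 was not analysed. None of 4 blood markers was analysed, and of the liver markers only ALB was, with 0 to 5 reads. Of 3 fibroblast markers, COL1A1 and COL3A1 were counted. Their summed level was 42.0 to 101.4 scaled CPM in mock and 19.7 to 54.2 in GD, and the part of this fall in the results was not tested. The WT mock libraries of the 2 sets were at least 2-fold apart at 10.7% of transcripts with 50 or more reads.

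ARRDC4, the glucose-responsive arrestin, was lower in GD than in the mock partner in each set, and highest of all in TG. In the stress set it had 971 reads in mock, 298 in GD and 2506 in TG. In the genotype set, WT cells gave 396 reads in mock and 214 in GD, and deficient cells 303 and 250. On a common scale of CPM (reads scaled to library size, with TMM factors from the shared transcripts) these are 61.2, 27.4 and 152.5 in the stress set and 31.0, 19.2, 22.6 and 21.5 in the genotype set, in the same order. All GD libraries lay below their own mock partner, but the genotype-set mock libraries, at 31.0 and 22.6, lay near the stress-set GD library at 27.4. The WT mock library of the genotype set stood at −0.98 on the log2 scale against that of the stress set, beside −1.16 for GD over mock within the stress set.

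**Figure D1:**
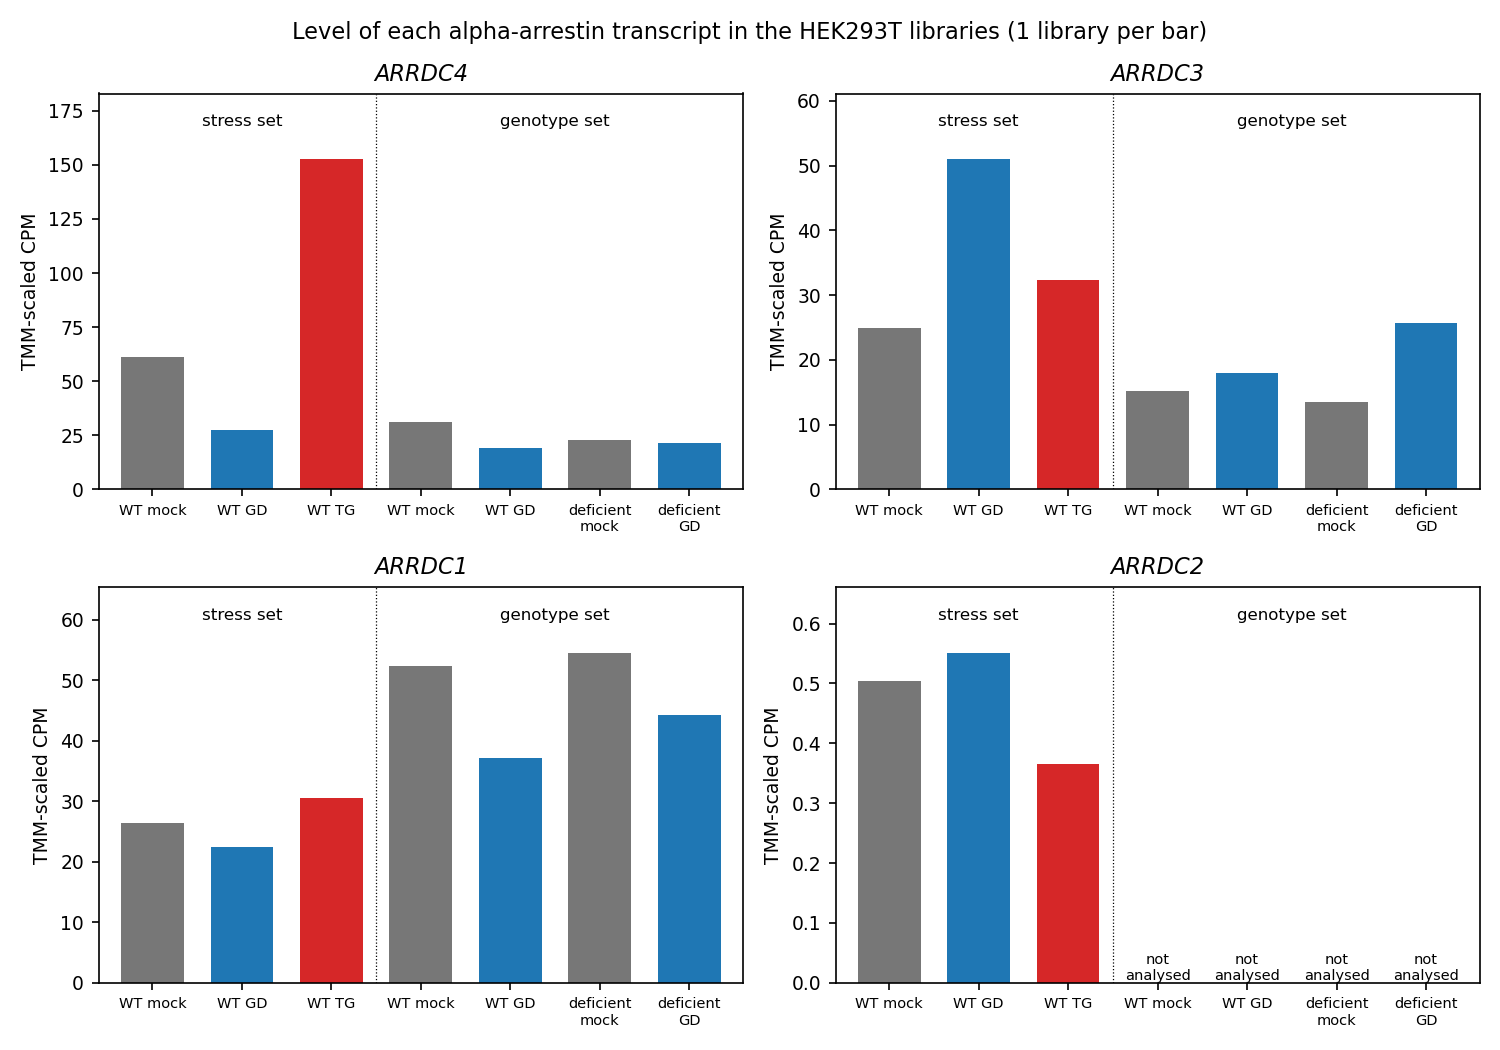
TMM-scaled CPM (y axis, linear from 0, scale differs by panel) of ARRDC4, ARRDC3, ARRDC1 and ARRDC2 in the 7 HEK293T libraries (x axis), grey for mock, blue for GD and red for TG, with 1 library per bar and no error bar. ARRDC4 stands at 152.5 in TG and at 19.2 to 27.4 in GD, ARRDC3 is highest in stress-set GD at 51.0, and ARRDC2 stays under 1.

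The first comparison asked how the arrestins respond to loss of glucose. ARRDC4 fell by 0.65 (log2, SE 0.195, n = 3 pairs of mock and GD, edgeR quasi-likelihood adjusted p = 0.04102), and was lower in 3 of 3 pairs. Its level in GD was 0.447 times that of mock in the stress set (exact 95% counting interval 0.392 to 0.51), 0.619 times in genotype-set WT (0.522 to 0.733) and 0.951 times in deficient cells (0.801 to 1.13). The interval of the deficient pair includes no change. The size depended on the stress set and on the deficient pair, and the call in part on the stress set. In the 4 WT libraries alone the change was −0.93 (edgeR adjusted p = 0.03376). A fit that leaves out 1 library of a pair estimates the GD change from the other pairs alone. The change was −0.38 in the genotype set alone (edgeR adjusted p = 0.08218) and −0.38 when stress-set WT mock was left out (edgeR adjusted p = 0.07276). It was −0.38 and still called when stress-set WT GD was left out (edgeR adjusted p = 0.02981). The range of adjusted p over all alternatives was 0.02468 to 0.4146, the highest from edgeR with treatment as the only term.

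ARRDC3, an adaptor known for the traffic of integrin beta-4, moved the other way. It had 396, 555 and 531 reads in stress-set mock, GD and TG. In the genotype set, WT cells gave 194 reads in mock and 200 in GD, and deficient cells 180 and 298. On the common CPM scale the mock libraries lay at 24.9, 15.2 and 13.4 and their GD partners at 51.0, 17.9 and 25.6, so each GD library was above its own mock while the groups overlapped across sets.

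ARRDC3 rose by 0.75 on the log2 scale (SE 0.179, n = 3 pairs, edgeR adjusted p = 0.01795), in 3 of 3 pairs. GD over mock was 2.04-fold in the stress set (counting interval 1.79 to 2.33), 1.18-fold in the WT pair of the genotype set (0.965 to 1.45) and 1.91-fold in deficient cells (1.58 to 2.31). The interval of the genotype-set WT pair includes no change. The call was lost in the 4 WT libraries alone (0.66, edgeR adjusted p = 0.1393). Leaving out deficient mock or deficient GD gave the same contrast of the WT pairs (0.66 and 0.65), also not called. The range of adjusted p over the alternatives (edgeR and DESeq2) was 0.0005527 to 0.4352.

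ARRDC3-AS1 overlaps ARRDC3 by 3011 bases on the opposite strand in GENCODE 29. The counts are not stated to use strand, so reads of the pair cannot be told apart where they overlap. ARRDC3-AS1 had 149, 123 and 196 reads in stress-set mock, GD and TG, and in the genotype set 90 and 118 in WT cells and 71 and 110 in deficient cells. Its GD ratios were 1.2, 1.5 and 1.79 in stress-set WT, genotype-set WT and deficient cells.

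ARRDC1, known for the budding of small vesicles at the plasma membrane with the ESCRT protein TSG101, had 420, 244 and 502 reads in stress-set mock, GD and TG. In the genotype set, WT cells gave 669 reads in mock and 414 in GD, and deficient cells 731 and 516. Its levels in mock were 26.5, 52.4 and 54.5 scaled CPM against 22.4, 37.1 and 44.3 in GD, lower in 3 of 3 pairs. The change of −0.35 on the log2 scale was not called (SE 0.121, edgeR adjusted p = 0.07024). It was called in the genotype set alone at −0.39 (edgeR adjusted p = 0.009676), without stress-set WT mock (edgeR adjusted p = 0.01108) or stress-set WT GD (edgeR adjusted p = 0.005581), and with library totals in place of TMM at −0.43 (edgeR adjusted p = 0.03548). The range over its alternatives was 0.005581 to 0.712. ARRDC1-AS1 and AL590627.2 overlap the span of ARRDC1 in the same annotation, by 29 and 9617 bases.

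ARRDC2, a member of the family whose cargo is less well known, had 8, 6 and 6 reads in mock, GD and TG. Its ratio to mock was 1.09 in GD (counting interval 0.313 to 3.59) and 0.725 in TG (0.207 to 2.38), so no difference was detectable at this depth. AC020904.3 overlaps it on the opposite strand by 442 bases.

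Of the 3 arrestins tested in GD, 1 rose and 1 fell, against 20.9% of all 10368 transcripts called in either direction, 9.75% higher and 11.1% lower. A fall in all 3 pairs, as in ARRDC4 and ARRDC1, was seen in 28.8% of transcripts, and a rise in all 3 pairs, as in ARRDC3, in 26.3%. In all, 2164 transcripts were called, 1011 higher and 1153 lower, and with library totals the split was 683 and 1526. Leaving out 1 library gave 494 calls for deficient GD and 504 for deficient mock. It gave 1147 for genotype-set WT GD and 1189 for its mock partner, and 4039 for stress-set WT GD and 3806 for its mock partner. In the stress-set pair, ARRDC4 passed 2-fold downward and ARRDC3 upward, where 7.22% of 8904 transcripts did so either way, 3.71% lower and 3.52% higher.

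**Figure D2:**
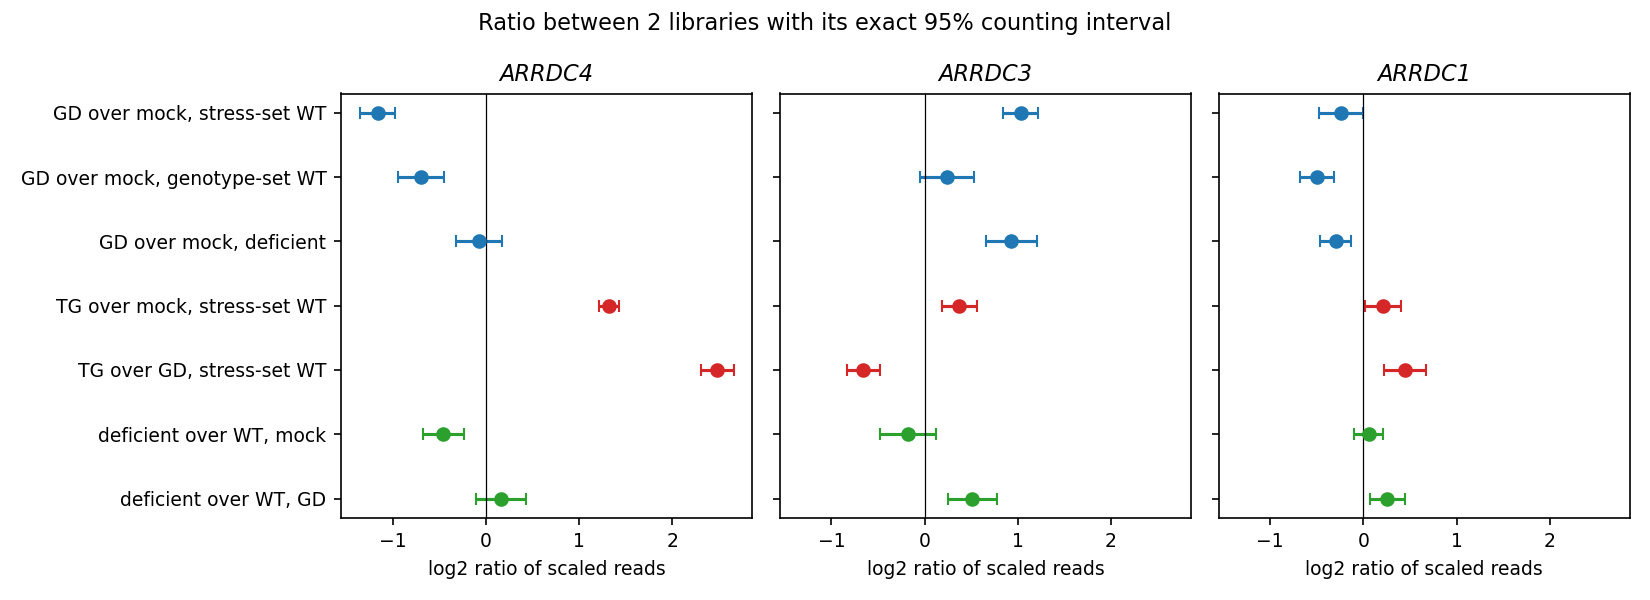
Log2 ratio of scaled reads between 2 libraries (x axis) for each pair of libraries (y axis), for ARRDC4, ARRDC3 and ARRDC1, in blue for GD over mock, red for TG and green for deficient over WT, with bars for the exact 95% counting interval, which leaves out the spread between cultures. ARRDC4 is below 0 in GD over mock (−1.16, −0.69 and −0.07) and at 1.32 in TG over mock, whereas ARRDC3 is above 0 in GD and in TG against mock.

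Thapsigargin was compared with mock in 1 library each, so the differences have no replicate check and no p-value. ARRDC4 was 2.49-fold higher in TG than in mock (counting interval 2.32 to 2.69) and 5.58-fold higher in TG than in GD (4.94 to 6.31). ARRDC3 was 1.3-fold higher in TG than in mock (1.14 to 1.48) and ARRDC1 1.16-fold (1.01 to 1.32). ARRDC3 in TG stood at 0.634 times its GD level (0.562 to 0.716), the opposite order to ARRDC4. Of the 3 arrestins with 50 or more reads, 1 passed 2-fold in TG against mock, where 8.11% of 9116 transcripts did so in either direction, 4.75% upward and 3.36% downward. These shares are of 739 transcripts, 433 higher and 306 lower (log2 CPM, prior count 5). With library totals the split was 361 and 390, and the median of all transcripts moved from 0.01 to −0.1. ARRDC4 was then higher in TG by 1.21 on the log2 scale against 1.32 with TMM, and ARRDC3 and ARRDC1 by 0.27 and 0.1 against 0.37 and 0.21.

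Levels of different genes were set side by side per kilobase, using the lengths of the matching GENCODE transcripts (1586 bases for ARRDC1, 2528 for ARRDC2, 4188 for ARRDC3 and 4072 for ARRDC4). In WT mock, the 2 libraries gave 16.7 and 33.0 scaled CPM per kilobase for ARRDC1, 15.0 and 7.61 for ARRDC4 and 5.96 and 3.63 for ARRDC3. The ranges of these 3 genes did not overlap in WT mock, and ARRDC2 was far below them at 0.199. The ARRDC2 value is that of 1 RefSeq transcript, NM_001025604.1. Whether it stands for all transcripts of the gene was not tested. In WT GD, ARRDC1 gave 14.1 and 23.4, ARRDC3 12.2 and 4.29 and ARRDC4 6.72 and 4.72. There the range of ARRDC4 lay inside that of ARRDC3, so their order could not be told. In TG the order was ARRDC4 at 37.5, ARRDC1 at 19.3, ARRDC3 at 7.72 and ARRDC2 at 0.145. In deficient mock ARRDC1 stood at 34.4, ARRDC4 at 5.55 and ARRDC3 at 3.21, and in deficient GD at 28.0, 5.28 and 6.12 in the same order of genes.

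The genotype comparison asked whether the UFD1s-deficient line differs in these transcripts. None of the 3 tested arrestins was called, where 1.11% of all transcripts were, 0.328% higher and 0.781% lower. The log2 differences of deficient against WT were −0.13 for ARRDC4 (SE 0.24, edgeR adjusted p = 0.8718), 0.16 for ARRDC3 (SE 0.223, edgeR adjusted p = 0.8276) and 0.15 for ARRDC1 (SE 0.146, edgeR adjusted p = 0.7215). In mock the ARRDC4 level of deficient cells was 0.729 times that of WT (counting interval 0.626 to 0.849), and in GD it was 1.12 times (0.929 to 1.35). ARRDC3 stood at 0.884 times the WT level in mock (0.718 to 1.09) and 1.43 times in GD (1.19 to 1.72). For ARRDC1 the ratios were 1.04 (0.936 to 1.16) and 1.19 (1.05 to 1.36). The authors' deposited log2 ratios of deficient over WT were −0.468 in mock and 0.163 in GD for ARRDC4. They were −0.19 and 0.514 for ARRDC3, and 0.046 and 0.257 for ARRDC1. The p-values deposited with these ratios were all above 0.05. The sign for ARRDC4 turned without deficient mock (0.28) and that for ARRDC3 without genotype-set WT GD (−0.20), neither of them called. Over all transcripts 115 were called by edgeR, 5 when either deficient library was left out, 1655 when stress-set mock was, and 1938 when stress-set GD was.

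Whether the GD response itself differs by genotype was tested as an interaction term, which leaves 1 residual degree of freedom. The ARRDC4 response was less negative in deficient cells by 0.86 on the log2 scale (SE 0.356), with an unadjusted p of 0.03835 and an edgeR adjusted p = 1. For ARRDC3 and ARRDC1 the terms were 0.28 (SE 0.419) and 0.07 (SE 0.308), both with an edgeR adjusted p = 1. Of all 10368 transcripts edgeR called 0, which is 0%, with 123 at an unadjusted p under 0.05, and DESeq2 called 0, with 22 so placed. The difference in ARRDC4 was thus not called after adjustment over all transcripts. With 1 residual degree of freedom and 0 transcripts called, the test cannot decide whether the response differs by genotype.

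The proteins that act with the arrestins were described from lists of partners and targets. In the MondoA and Mlx network, which controls ARRDC4 and TXNIP, 1 of 8 tested members rose in GD and 0 fell, with a median of −0.07 against −0.02 over all transcripts. The riser was MYC, which shares binding sites with the network, at 0.45 on the log2 scale (SE 0.131, edgeR adjusted p = 0.03676). MYCN (−1.66, edgeR adjusted p = 0.06559) and MXI1, a repressor of the network (−0.68, edgeR adjusted p = 0.09545), were not called. MLXIP, the gene of MondoA, was picked out after its values were seen, with 2839, 1733 and 2752 reads in stress-set mock, GD and TG and a GD change of −0.07 (edgeR adjusted p = 0.6039). In TG, MYCN had 5 reads against 54 in mock.

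Targets of MondoA and ChREBP other than the arrestins went both ways in GD, with 2 rising and 5 falling among 12 tested and a median of −0.32. Over all transcripts 9.75% rose and 11.1% fell, which is also the background for the counts of the other lists in GD. The fallers named by the rule were ACLY, which makes cytosolic acetyl-CoA, at −1.45 (edgeR adjusted p = 0.004723), the desaturase SCD at −0.94 (edgeR adjusted p = 0.0003372) and the fatty acid synthase FASN at −0.76 (edgeR adjusted p = 0.001116). They are also targets of the sterol-regulated factors SREBP. HK2, the hexokinase that traps glucose in the cell, rose by 0.82 (edgeR adjusted p = 0.0009233), the opposite sign to ARRDC4. In TG, HK2 was 2.93-fold higher than in mock and RGS16, a regulator of G-protein signalling, 2.72-fold. These were 2 of 10 targets past 2-fold upward, with 0 downward. Over the 9116 transcripts compared in TG, 4.75% passed 2-fold upward and 3.36% downward. The same shares are the background for the counts of the other lists in TG.

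**Figure D3:**
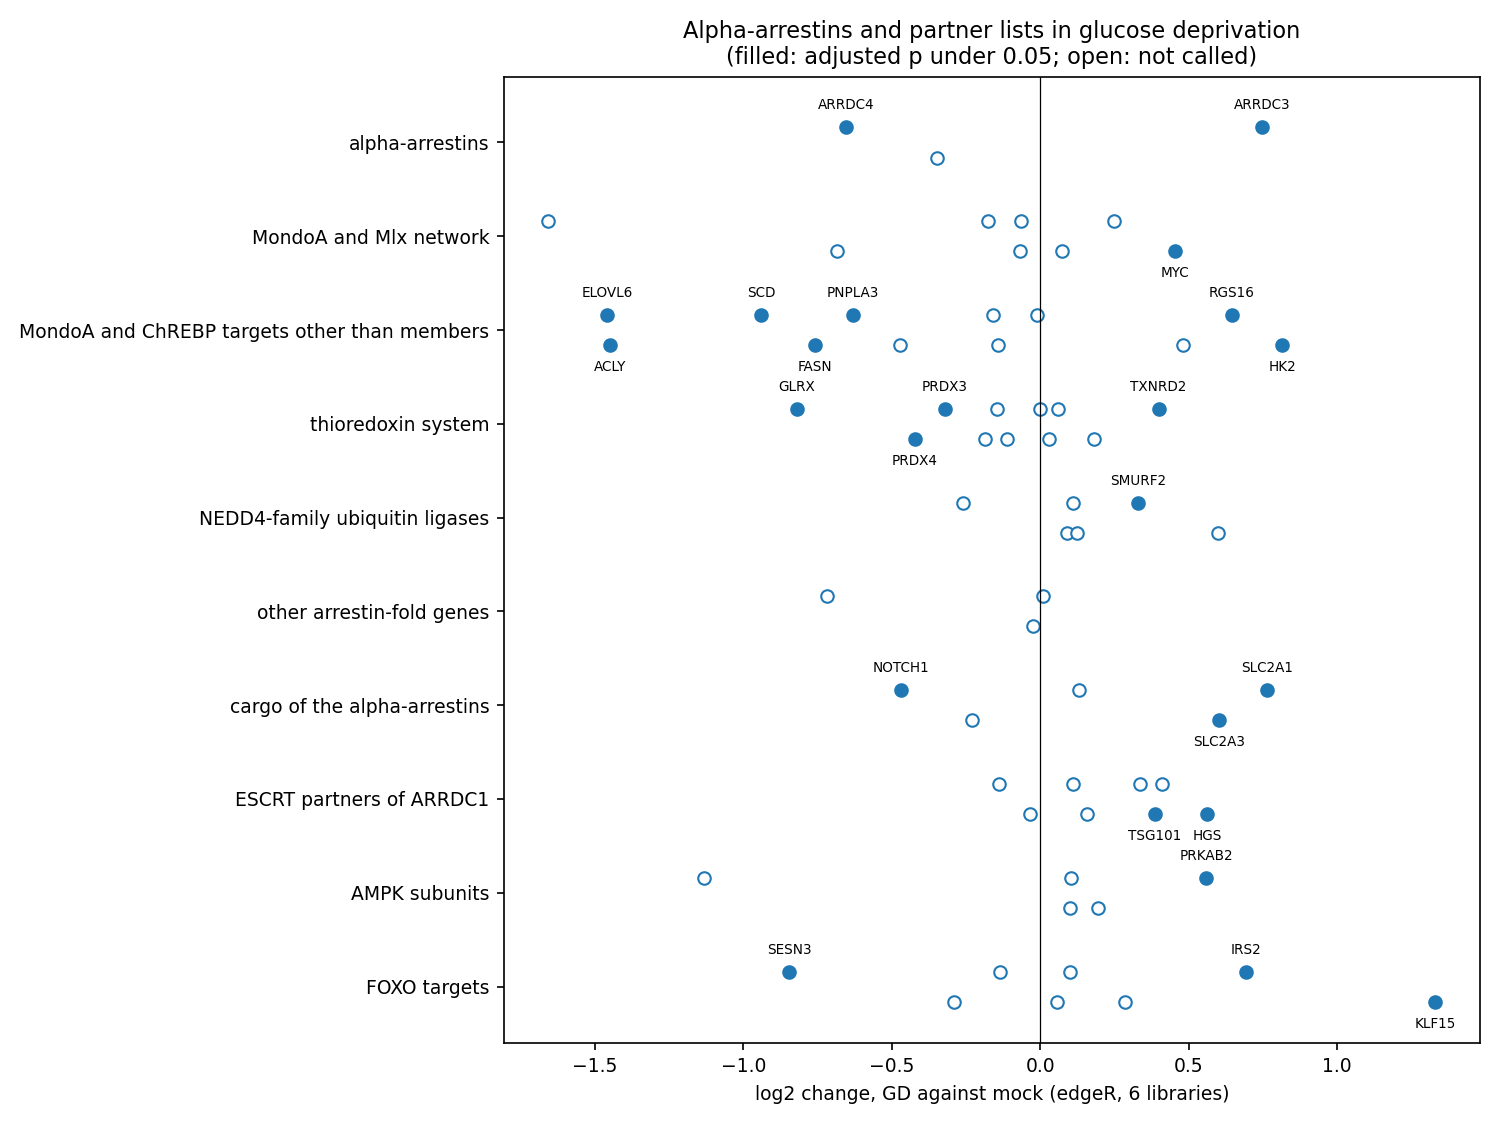
Log2 change in GD against mock (x axis, edgeR fit of 6 libraries) for each tested gene of the arrestin family and of 9 partner lists (y axis), with filled points for an adjusted p under 0.05. ARRDC4 at −0.65 and ARRDC3 at 0.75 lie on opposite sides of 0, as do the targets ACLY at −1.45 and HK2 at 0.82.

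The cargo list held transporters and receptors that alpha-arrestins are known to bind. Of 5 tested genes 2 rose and 1 fell in GD, with a median of 0.13. The glucose transporters rose, SLC2A1 (GLUT1) by 0.76 (SE 0.103, edgeR adjusted p = 0.001563) and SLC2A3 (GLUT3) by 0.60 (SE 0.166, edgeR adjusted p = 0.03072). SLC2A1 had 931, 1199 and 1326 reads across the mock samples against 1240, 1798 and 1697 in their GD partners, with higher scaled levels in 3 of 3 pairs. The GD ratio of SLC2A3 was 1.05 in the stress set, 2.2 for WT cells of the genotype set and 1.52 for deficient cells. The muscle and fat transporter SLC2A4 (GLUT4) was not called at −0.23 (SE 0.366, edgeR adjusted p = 0.6927). In TG, SLC2A1 stood at 1.59 times mock. NOTCH1 fell by 0.47 (edgeR adjusted p = 0.01), and in TG it stood at 0.441 times mock, the 1 gene of 4 past 2-fold.

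Among the NEDD4-family ubiquitin ligases, which the arrestins recruit, 1 of 6 tested rose in GD and 0 fell, with a median of 0.12. SMURF2 was the riser at 0.33 (edgeR adjusted p = 0.02785), and NEDD4 was not called at 0.60 (edgeR adjusted p = 0.07024). In TG none of 5 passed 2-fold, and HECW1 stood at 0.529 times mock. Of 8 tested ESCRT partners of ARRDC1, 2 rose and 0 fell (median 0.25). These were HGS, which sorts ubiquitinated cargo at endosomes, at 0.56 (edgeR adjusted p = 0.004814) and TSG101 at 0.39 (edgeR adjusted p = 0.01554). None of 3 tested relatives of the arrestin fold was called, with ARRB1 (beta-arrestin 1) at −0.72 (SE 0.503, edgeR adjusted p = 0.3414) on 8 to 34 reads, and the retromer subunits VPS26A and VPS26B at 0.01 and −0.02.

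The thioredoxin system, whose protein thioredoxin TXNIP binds, had 1 rise and 3 falls in 11 tested genes in GD, with a median of −0.11. The reductase TXNRD2 rose by 0.40 (edgeR adjusted p = 0.04148), and the peroxiredoxins PRDX4 and PRDX3 fell by 0.42 and 0.32 (edgeR adjusted p = 0.01125 and 0.04758). GLRX, glutaredoxin, which reduces mixed disulfides with glutathione, fell by 0.82 (SE 0.211, edgeR adjusted p = 0.02407). It was 2.82-fold higher in TG than in mock, the 1 member of 11 past 2-fold, and PRDX5 was 1.71-fold higher.

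The pattern of ARRDC4 over the 7 libraries was set against 6958 transcripts with a mean of 10 CPM or more. The measure was the root mean square difference of log2 levels centred within each set. Unnamed, small RNA, histone and uncharacterised (LOC, C#orf, FAM) names were left out of the nearest given here. The nearest were MPV17L2, a factor of mitochondrial ribosome assembly (0.116), GLRX (0.205), GMNN, the inhibitor of replication licensing geminin (0.232), BARX2, a homeobox gene (0.268), and MGAT2, an enzyme of N-glycan processing (0.289). MPV17L2 had 231, 90 and 612 reads in stress-set mock, GD and TG, and in the genotype set 358 and 200 in WT cells and 276 and 207 in deficient cells, mock before GD. Its TG level was 2.56 times mock, near the 2.49 of ARRDC4, and its GD change of −0.55 was not called (SE 0.175, edgeR adjusted p = 0.05299). MGAT2, the most counted of the 5, had 2145, 986 and 4263 reads in stress-set mock, GD and TG. The 5 were chosen for likeness, so their agreement is a description of these libraries.

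**Figure D4:**
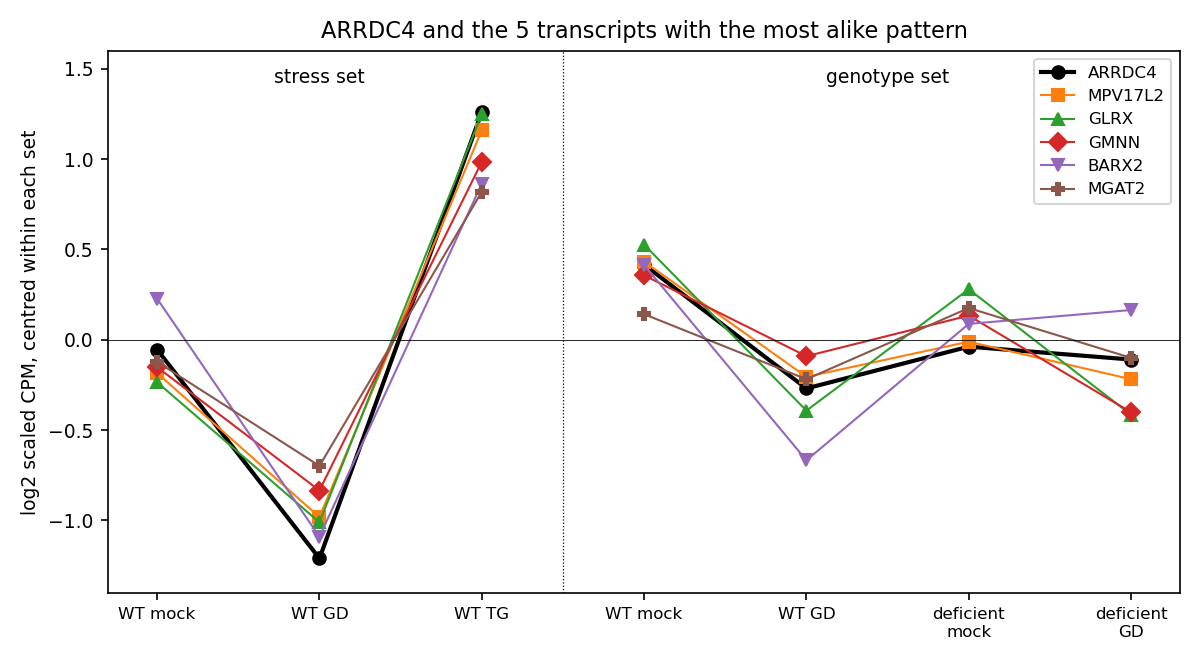
Log2 scaled CPM centred within each set (y axis) of ARRDC4 in black and of the 5 transcripts nearest to it in colour, in the 7 HEK293T libraries (x axis), with lines joining libraries of 1 set to guide the eye. ARRDC4 runs from −1.21 in stress-set GD to 1.26 in TG, and MPV17L2 from −0.98 to 1.16.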

How the data were processed

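The files deposited by the authors hold raw counts of reads for each RefSeq transcript, without normalization. Per the labels, total RNA went into a TruSeq Ribo Profile kit, and the design text names RNA-seq depleted of rRNA. The submitters' processing notes list Bowtie2 and bedtools beside cutadapt and FastQC, with hg19 as the human build. The annotation release, the counting rule, strand use and tool versions are not given in the sources used. Log2 ratios with their p-values, deposited by the authors for the genotype comparison, were read beside the fit. The N2a table was not used.

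Transcripts in both HEK293T tables (10368) were fitted with edgeR 4.0.16 in R 4.3.3, by its quasi-likelihood test over 6 libraries (TG left out), with terms for treatment, genotype and set. This leaves 2 residual degrees of freedom, and the spread of each transcript is drawn toward that of all transcripts fitted. TMM factors, the default filter (0 removed) and Benjamini-Hochberg adjustment at 0.05 over all transcripts were used, and DESeq2 1.42.0 was an alternative. The library totals span 11461365 to 19024327 reads. Ratios of 2 libraries carry 95% intervals (exact, conditional on the sum) for counting error alone. Shares past 2-fold are of transcripts whose larger count was at least 50, using log2 CPM and prior count 5. The scripts were tested on simulated data.

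Members and lists were chosen with earlier results of these data known. Named genes were all members, up to 4 per list with the lowest GD p, up to 2 with the largest TG ratio, the treatment checks, and the 5 transcripts nearest to ARRDC4 (prior count 2). One item of the list of cargo is not reported here, and its counts are over the others.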

Additional observations from a re-analysis of the deposited data

How the results depend on the processing

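The GD comparison is paired as fitted, since its set and genotype terms make 3 blocks of 1 mock and 1 GD library, while the labels carry no replicate numbers for any further block. The count of transcripts called in GD was 3934 in the genotype set alone, 490 in the 4 WT libraries, 23 with treatment as the only term and 494 to 4039 when 1 library was left out. In GD, ARRDC4 was at −0.38 in the genotype set alone, −0.76 with treatment as the only term and −0.93 to −0.38 with 1 library left out. ARRDC3 was at 0.82 with treatment as the only term, 0.66 in the 4 WT libraries and 0.59 to 0.99 with 1 library left out. ARRDC1 was at −0.43 with library totals, −0.39 in the genotype set alone and −0.40 to −0.26 with 1 library left out. The count of transcripts that differed by genotype was 222 with DESeq2, 68 among those with 10 CPM or more on average, 1614 in the genotype set alone and 5 to 1938 with 1 library left out. The genotype difference ran from −0.58 to 0.28 for ARRDC4, −0.20 to 0.54 for ARRDC3 and 0.04 to 0.27 for ARRDC1. In TG, 401 transcripts passed 2-fold with 200 or more reads. The cause was not tested. Of 132 alternative values, 102 kept their direction and their side of the threshold, or stayed close. These include the values without a filter on low counts. They could not move, because the default filter removed 0 transcripts. A library whose partner is left out is fitted by its own term, and the interaction could not be fitted with 1 library fewer. The 6 to 8 reads of ARRDC2 limit its ratios.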

Other observations

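Energy-sensing kinases and starvation-linked genes near the arrestins were read in the same fit. Of 5 tested AMPK subunits, the kinase known to phosphorylate TXNIP, 1 rose in GD and 0 fell, with a median of 0.11. PRKAB2 was the riser at 0.56 on the log2 scale (SE 0.098, edgeR adjusted p = 0.004831), while PRKAG2 was not called at −1.13 (SE 0.397, edgeR adjusted p = 0.07117). In TG, PRKAG1 had 64 reads against 24 in mock and PRKAG2 had 22 against 67. Of 8 tested FOXO targets, a group switched on when insulin signalling is low, 2 rose and 1 fell in GD, with a median of 0.08. KLF15, a factor of amino acid and lipid use in fasting, rose by 1.33 (SE 0.203, edgeR adjusted p = 0.0027), IRS2, an insulin receptor substrate, rose by 0.69 (edgeR adjusted p = 0.002737), and SESN3 fell by 0.85 (edgeR adjusted p = 0.001441). None of 8 FOXO targets with 50 or more reads passed 2-fold in TG, and CITED2 was 1.75-fold higher.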
